A study of Mus musculus with 2 samples.

Results

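The genes described here are 34 imprinted genes and noncoding partners, taken by name from 16 imprinted clusters of the mouse genome and set side by side within their clusters. Gene identifiers without their version were matched to GENCODE symbols, and 33 of the 34 names were found among the 43346 Ensembl genes of the tables. Peg13, a noncoding RNA inside Trappc9, was not analysed here. The tissue was whole lung of healthy B6NCrl mouse embryos at embryonic day 15.5, with male and female embryos pooled, and no treatment or allele is named in the labels. All of the data came from 1 group of 2 libraries of total RNA. Replicate 1 was made from the lungs of 78 embryos and replicate 2 from the lungs of 62 embryos, with 10 ng of RNA longer than 200 nt per library. The labels give 1 library per pool, which they number as biological replicates, so a difference between the libraries compares these pools and no condition.

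Imprinted genes are transcribed mainly from the copy inherited from the mother or mainly from the copy inherited from the father, according to DNA methylation laid down in the egg or the sperm. Many lie in clusters where a differentially methylated imprinting control region governs coding genes together with a long noncoding RNA. Several of them regulate fetal and placental growth, and many are at their highest levels before birth. Levels are given in TPM, a transcript level scaled for length and to the same total in each library, which sums both parental copies. In a bulk tissue, fewer cells of a type and less RNA per cell cannot be told apart.

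The sequences that frame the results are the starts from which transcription can begin, since several of these genes have an imprinted start and a further start with another pattern. Each window below runs from 250 bases before to 50 bases after a RefSeq start on GRCm38.p6, is written 5′ to 3′ on the strand named, and was taken from RefSeq. Capitals mark CpG dinucleotides, the bases that carry DNA methylation in mammals. For Gnas, the Nesp start (chr2:174284070-174284369, plus strand) held 16 CpG and the Gs-alpha start (chr2:174329756-174330055, plus strand) held 40.
Gnas Nesp: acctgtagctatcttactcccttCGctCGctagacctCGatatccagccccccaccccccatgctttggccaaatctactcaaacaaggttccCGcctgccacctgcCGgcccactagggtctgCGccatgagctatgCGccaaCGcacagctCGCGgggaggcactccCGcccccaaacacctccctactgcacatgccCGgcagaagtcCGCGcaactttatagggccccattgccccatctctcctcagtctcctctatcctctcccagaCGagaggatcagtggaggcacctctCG
Gnas Gs-alpha: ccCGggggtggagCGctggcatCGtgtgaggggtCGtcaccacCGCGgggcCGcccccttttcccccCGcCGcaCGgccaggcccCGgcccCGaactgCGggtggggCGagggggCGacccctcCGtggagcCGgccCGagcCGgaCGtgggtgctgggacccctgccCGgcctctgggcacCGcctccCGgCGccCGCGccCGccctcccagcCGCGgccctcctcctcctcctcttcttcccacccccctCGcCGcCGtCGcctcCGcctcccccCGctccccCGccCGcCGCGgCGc

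For Mest, an upstream start (chr6:30733256-30733555, plus strand) with 8 CpG is set against the main, imprinted start (chr6:30737800-30738099, plus strand) with 17. For Grb10, the main start (chr11:12037371-12037670, minus strand) with 45 CpG is set against a downstream start (chr11:12027922-12028221, minus strand) with 9.
Mest upstream: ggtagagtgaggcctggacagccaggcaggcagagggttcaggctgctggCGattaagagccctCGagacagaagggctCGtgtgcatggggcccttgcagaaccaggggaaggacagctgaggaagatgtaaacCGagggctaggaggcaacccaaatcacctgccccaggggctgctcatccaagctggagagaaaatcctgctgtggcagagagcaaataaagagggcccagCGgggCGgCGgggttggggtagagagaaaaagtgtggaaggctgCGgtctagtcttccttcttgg
Mest main: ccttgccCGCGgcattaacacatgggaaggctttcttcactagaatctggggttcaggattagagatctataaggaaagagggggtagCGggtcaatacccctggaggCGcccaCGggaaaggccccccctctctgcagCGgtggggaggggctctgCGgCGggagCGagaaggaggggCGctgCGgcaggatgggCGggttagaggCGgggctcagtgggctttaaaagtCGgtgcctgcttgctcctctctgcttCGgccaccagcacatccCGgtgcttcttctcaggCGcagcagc
Grb10 main: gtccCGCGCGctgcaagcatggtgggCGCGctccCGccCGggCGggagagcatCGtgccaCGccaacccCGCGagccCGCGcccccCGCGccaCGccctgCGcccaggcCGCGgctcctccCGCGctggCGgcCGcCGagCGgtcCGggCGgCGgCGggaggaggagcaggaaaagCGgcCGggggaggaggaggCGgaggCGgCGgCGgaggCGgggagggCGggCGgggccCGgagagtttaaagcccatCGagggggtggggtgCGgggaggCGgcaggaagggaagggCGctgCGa
Grb10 downstream: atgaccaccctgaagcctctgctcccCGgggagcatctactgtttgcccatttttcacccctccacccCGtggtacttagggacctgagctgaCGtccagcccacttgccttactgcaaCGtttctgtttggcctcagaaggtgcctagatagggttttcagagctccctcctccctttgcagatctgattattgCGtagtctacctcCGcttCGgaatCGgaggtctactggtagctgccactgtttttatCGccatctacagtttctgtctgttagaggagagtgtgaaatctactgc

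Peg3 and Usp29 begin back to back and run in opposite directions. Their RefSeq starts, 6730419 on the minus strand and 6730583 on the plus strand of chromosome 7, lie 163 bases apart. In the window of Usp29 (chr7:6730333-6730632, plus strand) the capitals mark those bases instead of CpG.
Peg3 and Usp29: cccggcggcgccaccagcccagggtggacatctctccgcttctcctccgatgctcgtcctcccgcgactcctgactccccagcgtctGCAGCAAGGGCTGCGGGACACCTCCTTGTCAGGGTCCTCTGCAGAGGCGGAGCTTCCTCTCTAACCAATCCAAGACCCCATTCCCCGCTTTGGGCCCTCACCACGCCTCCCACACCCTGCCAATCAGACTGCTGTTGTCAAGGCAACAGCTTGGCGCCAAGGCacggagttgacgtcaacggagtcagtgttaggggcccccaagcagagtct

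Over the 27 genes with a RefSeq window, 38 windows of 300 bases had a median of 15 CpG, beside a median of 7 over all 32851 windows in the table. Windows with 15 CpG or more made up 52.6% of those of the imprinted genes and 34.6% of all windows. The limit of 15 is the median of the imprinted windows themselves, so their share was largely set in advance. Windows that overlap almost wholly, as at the main start of Mest, were counted separately. The hexamer TGCCGC, which ZFP57 binds when its CpG is methylated, was the only motif searched, on both strands. It stood in 10 of the 38 windows (26.3%) and in 11.6% of all windows. The 9 genes with it were Mest, Nnat, Snrpn, Plagl1, Grb10, Meg3, Copg2, Zim1 and Zdbf2. No window of Gnas, Peg3, Kcnq1ot1 or Airn held it. The hexamer itself holds a CpG, and these shares were not matched for the number of CpG. A match is a description of these letters and no site of binding. Cdkn1c, H19, Impact, Peg10, Peg13, Rtl1 and Sgce have no window.

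Small RNAs encoded in these clusters are shown as sequences only, and what they do in the lung was not measured. Of mature miRNAs, 11 from 6 hairpins are exactly complementary to the Rtl1 transcript (6358 bases in GENCODE M21), and they have 11 different seeds. Those below, from RefSeq on GRCm38.p6, are written 5′ to 3′ with the seed (bases 2 to 8) in capitals. The last is cut from H19 itself, inside its longest model of 2286 bases.
miR-127-3p: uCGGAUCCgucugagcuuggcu
miR-433-3p: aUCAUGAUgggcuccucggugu
miR-434-3p: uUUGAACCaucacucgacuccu
miR-136-5p: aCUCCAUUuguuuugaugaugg
miR-431-5p: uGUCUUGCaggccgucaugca
miR-675-5p: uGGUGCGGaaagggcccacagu

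The libraries held 39530297 estimated reads in genes for replicate 1 and 35733530 for replicate 2. All 6 lung markers (Nkx2-1, Sftpc, Tcf21, Foxf1, Epcam, Pecam1) stood between 71.0 and 6881 TPM in both libraries. Markers of neighbouring organs were present and differed between the pools. Their summed level was 35.5 TPM in replicate 1 and 20.7 in replicate 2 for 8 neuron markers, all higher in replicate 1. The sums were 36.8 and 9.71 TPM for 7 thymus markers, all higher in replicate 1, and 33.3 and 155 TPM for 8 liver markers, all lower in replicate 1. Of 8 heart and skeletal muscle markers, 6 were lower in replicate 1, with sums of 244 and 357 TPM, and none of these markers was at 0 in both libraries. Their part in the levels and differences of the imprinted genes was not tested.

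The embryonic lung held most of the imprinted genes, and a few of them at very high levels. At the minimum of 1 TPM in both libraries 28 of the 33 genes (84.8%) were detected, beside 33.6% of all Ensembl genes and 60.7% of protein-coding genes. Of the 33, 20 reached 10 TPM in both libraries, 10 reached 100 TPM and 2, Gnas and Mest, reached 1000 TPM. Of all 43346 Ensembl genes, 9063, 1643 and 94 reached these levels. Zim1, Magel2, Rasgrf1, Dio3 and Usp29 were not detected by this rule. All 6 noncoding RNAs that were matched (H19, Meg3, Rian, Mirg, Airn, Kcnq1ot1) passed it, as did 22 of the 27 coding genes. The share over all noncoding genes was not counted.

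The summed level of the 33 genes was 6373 TPM in replicate 1 and 6120 TPM in replicate 2, a mean of 6246 ± 179 (SD, n = 2). They took 0.937% and 0.926% of the reads in genes. The 7 highest (Gnas, Mest, Nnat, Grb10, Dlk1, H19 and Cdkn1c) made up 83.7% of the summed level in replicate 1 and 84.4% in replicate 2. The median gene stood at 26.5 ± 0.396 TPM (SD of the library medians, n = 2).

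**Figure D1:**
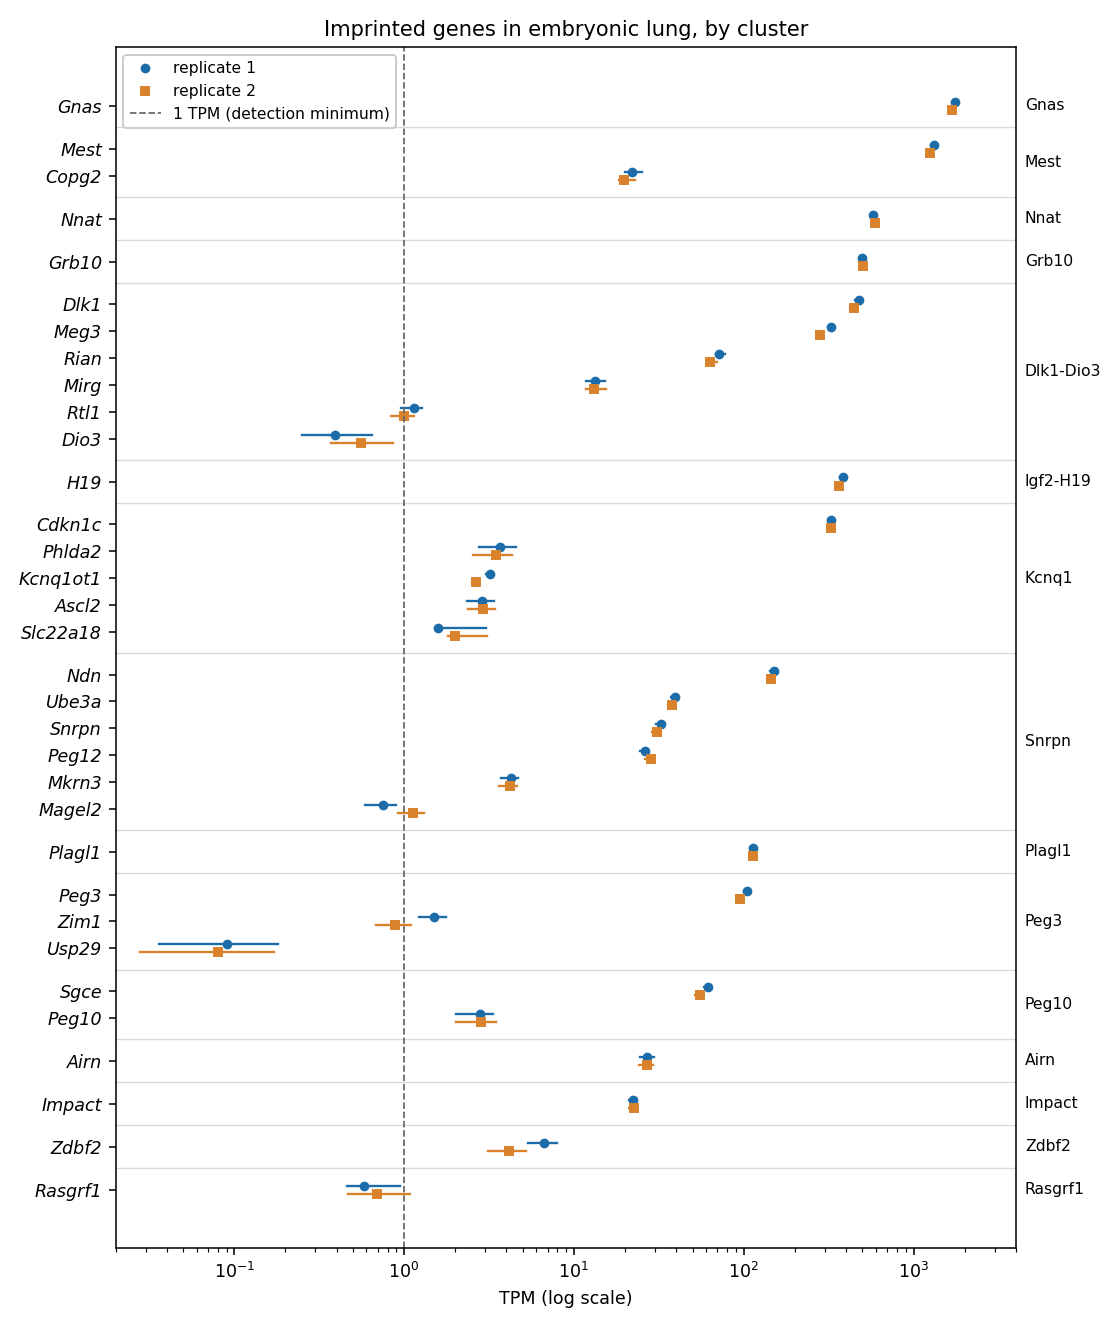
Level of 33 imprinted genes in embryonic lung, grouped by cluster (named at the right) and ordered by the highest gene of each. The log axis gives TPM, circles are replicate 1 and squares replicate 2, with the dashed line at 1 TPM. Lines are the deposited intervals, which lie around a posterior mean and need not contain the TPM drawn. Within the Dlk1-Dio3, Kcnq1, Snrpn and Peg3 clusters the genes spread over 2 or more powers of 10, while circle and square of a gene lie close together.

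Gnas, which encodes the stimulatory alpha subunit that couples hormone receptors to adenylyl cyclase, was the highest of the 33. It stood at 1756 TPM in replicate 1 and 1686 TPM in replicate 2, rank 43 among all genes (ENSMUSG00000027523.15; chromosome 2, 174284320 to 174346744, plus strand). Its starts differ in imprinting: Nesp transcripts come from the maternal copy, XL and exon 1A transcripts from the paternal copy, and the Gs-alpha start is active on both copies in most tissues. Transcripts from the Gs-alpha start held 93.2% of the Gnas level in replicate 1 and 93.3% in replicate 2, or 1636 and 1574 TPM. The group that begins at the Nesp start held 3.26% and 3.04%, which is still 57.3 and 51.2 TPM. The group 13539 bases downstream of the Nesp start, in the XL region, held 0.86% in replicate 1 and 0.85% in replicate 2, or 14.8 and 14.3 TPM. The group 43250 bases downstream, in the region of exon 1A, held 1.83% and 1.84%, or 32.1 and 31.0 TPM. Small as shares of Gnas, the Nesp and exon 1A groups each exceeded the level of the median imprinted gene.

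Among single models, Gnas-208 led with 75.6% in replicate 1 and 76.6% in replicate 2, ahead of Gnas-206 with 9.54% and 9.61%. Nespas, the antisense RNA whose transcription is needed for the Nesp start to be methylated on the paternal copy, stood at 7.86 TPM in replicate 1 and 7.24 TPM in replicate 2. Gnas was 228 ± 6.68 times higher than Nespas per length (SD, n = 2). Exons of the genes overlap over 988 bases on opposite strands, 8.83% of the Gnas exons. Gm20721, a gene model on the opposite strand with 1469 bases of shared exon, had 40.0 TPM in replicate 1 and 37.5 TPM in replicate 2, and is named here after its values were seen. The use of strand in counting is not given in the sources used here, so reads of such opposite pairs cannot be told apart.

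Mest, a paternally expressed gene of mesoderm that encodes an enzyme of the alpha/beta-hydrolase fold, came next. It stood at 1312 TPM in replicate 1 and 1249 TPM in replicate 2 (chromosome 6, 30723547 to 30748465, plus strand), and Gnas was 1.34 ± 0.00818 times higher. Nearly all of it began at the main start printed above, whose group held 98.6% and 98.7% of the level. The 3 groups of starts upstream, including the upstream window printed above, held 0.03% or less each in either library. A group 18529 bases beyond the 5′-most start, downstream of the main start, held 1.12% in replicate 1 and 1.23% in replicate 2. Copg2, a subunit of the coat of Golgi vesicles that is transcribed towards Mest from the other strand, stood at 21.8 TPM in replicate 1 and 19.8 TPM in replicate 2. Mest was 61.5 ± 2.03 times higher than Copg2, and the genes share 912 exon bases at their ends, 17.8% of the Copg2 exons. Mest had 81494 estimated reads in replicate 1 and 72213 in replicate 2, Copg2 had 1607 and 1420, and the level of Copg2 depends on how reads over the shared bases were assigned.

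Nnat, a paternally expressed gene for a small membrane protein, lies in the intron of Blcap on the opposite strand (chromosome 2, 157560078 to 157562522, plus strand). It stood at 579 TPM in replicate 1 and 589 TPM in replicate 2, and its host Blcap at 40.7 and 38.3 TPM. Nnat was 14.8 ± 0.820 times higher than the gene that contains it, and no exon of either overlaps the other. The splice form Nnat-202 held 67.7% in replicate 1 and 65.3% in replicate 2, and Nnat-205 held 21.2% and 23.1%.

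Grb10, an adaptor that restrains insulin and insulin-like growth factor signalling, is read from the maternal copy at its main start in most tissues and from the paternal copy at downstream starts in neurons. It stood at 499 TPM in replicate 1 and 506 TPM in replicate 2 (chromosome 11, 11930508 to 12038683, minus strand). The main start held 94.0% of the level in replicate 1 and 93.8% in replicate 2. The downstream start printed above held 3.36% and 3.81%, or 16.8 and 19.3 TPM, and the next group, 11951 bases from the 5′-most start, held 1.86% and 1.70%. In Gnas, Mest and Grb10 alike, of the windows printed the one with fewer CpG belonged to the start with the smaller share. The order did not hold for unprinted Gnas windows. Those in the region of exon 1A held 27 and 28 CpG, beside 16 at the Nesp start. The exon 1A group held 1.83% in replicate 1 and 1.84% in replicate 2, beside 3.26% and 3.04% for the Nesp group. The genes that flank Grb10 were far lower. Grb10 was 37.3 ± 1.09 times higher than Ddc (13.1 and 13.9 TPM), which makes dopamine from its precursor. It was 52.2 ± 4.06 times higher than Cobl (10.1 and 9.18 TPM), an actin nucleator.

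**Figure D2:**
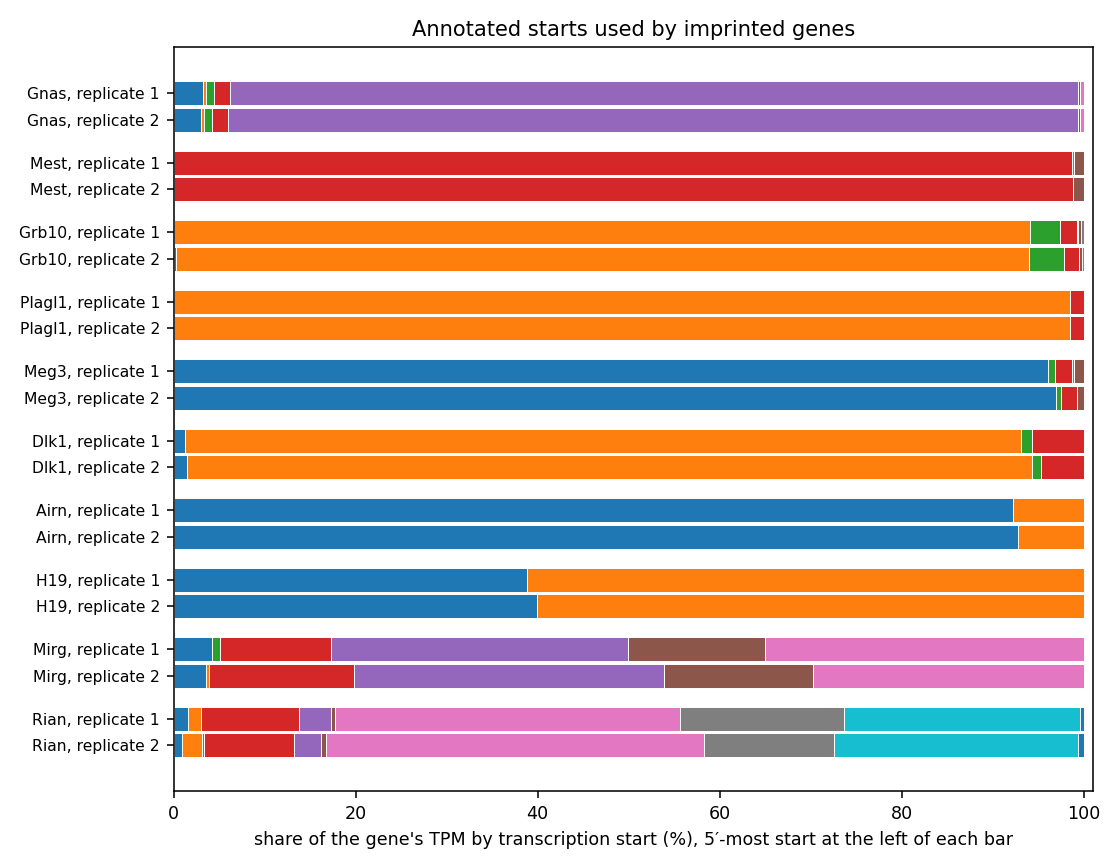
Share of each gene's TPM by annotated transcription start, with a bar for each library (replicate 1 above replicate 2). Within a bar the colours separate groups of starts more than 500 bases apart, from the most upstream at the left. In Gnas, Mest, Grb10, Plagl1, Meg3, Dlk1 and Airn a single group holds over 90% in both libraries, while Mirg and Rian are split over several.

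The Dlk1-Dio3 cluster on chromosome 12 pairs paternally expressed coding genes with maternally expressed noncoding RNAs, and in the lung both sides were read strongly at its start. Dlk1, a transmembrane regulator related to Notch ligands, stood at 477 TPM in replicate 1 and 443 TPM in replicate 2. Meg3, the maternal noncoding RNA whose start lies 88178 bases away, stood at 326 TPM in replicate 1 and 279 TPM in replicate 2. Dlk1 was 1.53 ± 0.0869 times higher than Meg3, with intervals apart in both libraries. The other maternal RNAs of the set were lower: Rian, host of a cluster of snoRNAs, had 71.8 and 63.6 TPM, and Mirg, host of miRNAs, had 13.2 TPM in both. Meg3 was 4.47 ± 0.102 times Rian and Rian 5.13 ± 0.432 times Mirg. The order holds for these named RNAs only: between Rian and Mirg on the same strand, Gm37899 (2.32 and 2.11 TPM) and B830012L14Rik (2.37 and 1.54 TPM), named here after their values were seen, were below Mirg.

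The other coding genes of the cluster were scarce. Rtl1, a retrotransposon-derived gene needed in placental capillaries, stood at 1.14 TPM in replicate 1 and 1.00 TPM in replicate 2, on 189 and 154 estimated reads. Meg3 was 283 ± 4.55 times higher than Rtl1. MiRNA genes lie opposite Rtl1, and strand use in counting is not given, so reads from that strand cannot be told apart from Rtl1. Dio3, the deiodinase that inactivates thyroid hormone, stood at 0.39 TPM in replicate 1 and 0.56 TPM in replicate 2, on 18 and 24 reads, so that the fold of Dlk1 over Dio3 varied widely, 1008 ± 305. The neighbour Begain, a synaptic protein gene upstream, had 4.50 and 4.14 TPM.

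Where within the noncoding genes the reads fell also differed. Meg3 began at its 5′-most group of starts for 96.0% of its level in replicate 1 and 96.9% in replicate 2, led by Meg3-205 with 83.7% and 84.0%. Rian was spread over internal models, with 37.9% in replicate 1 and 41.5% in replicate 2 on a group that begins 42201 bases into the gene and 1.62% and 0.88% at its 5′-most group. Mirg showed the same kind of spread, with 4.19% in replicate 1 and 3.59% in replicate 2 at the 5′-most group, against a mean of 33.4% for the leading group, 7938 bases in, and 35.0% in replicate 1 and 29.8% in replicate 2 for a group 18139 bases in. These shares divide reads over annotated models, and the tables do not show where a molecule began. Dlk1 was led by Dlk1-205, with 77.6% in replicate 1 and 76.2% in replicate 2.

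The 828 kb from Dlk1 to Dio3 held 96 annotated genes, of which 86 were short noncoding genes. Of its 59 miRNA genes, 57 were at 0 in both libraries, and all 59 together had 1.23 reads in replicate 1 and 1 in replicate 2. All 23 snoRNA genes were at 0. The libraries were made from RNA longer than 200 nt, so mature miRNAs and most snoRNAs were outside the measurement, and their host RNAs are what the values describe. The miR-127, miR-433, miR-434, miR-136 and miR-431 printed above are encoded opposite Rtl1 on the strand of Meg3 and Rian.

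**Figure D3:**
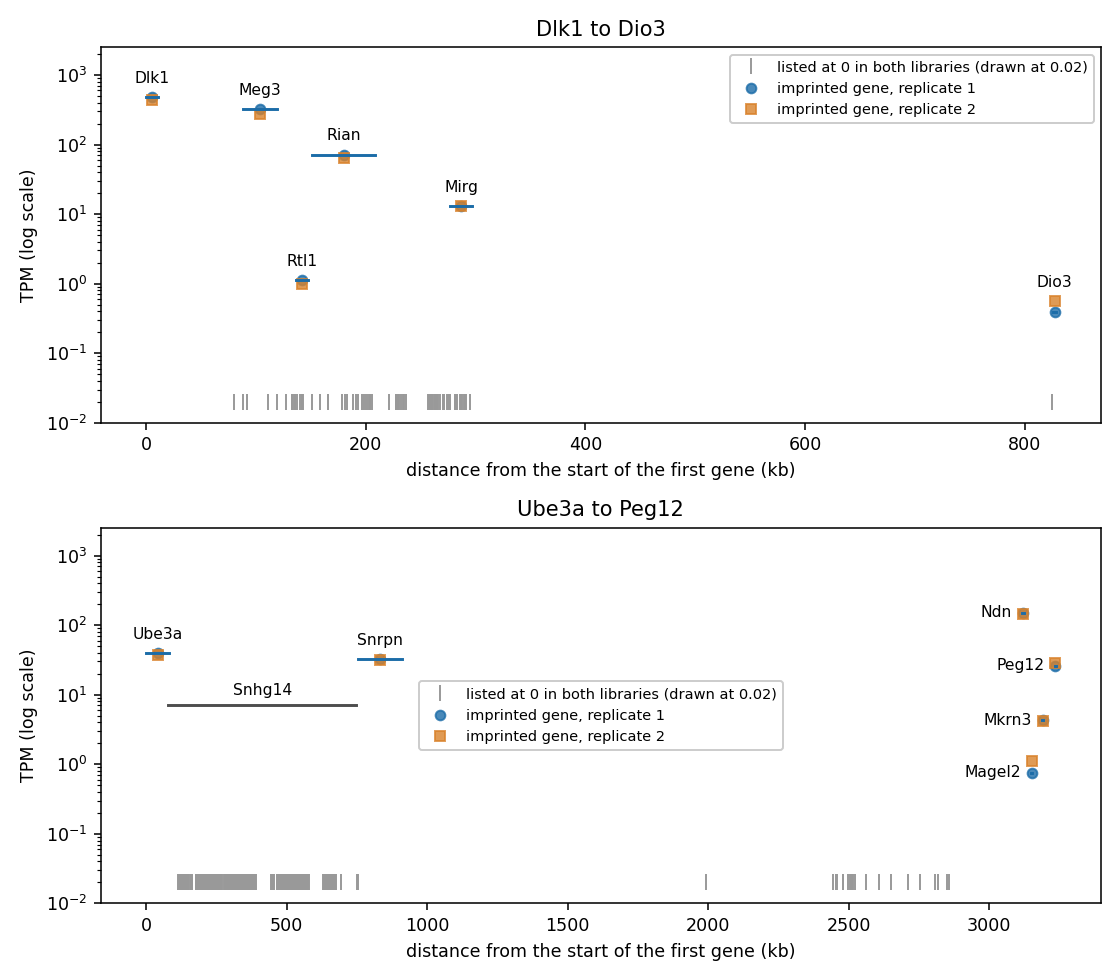
Levels along the Dlk1-Dio3 cluster (top) and the Snrpn cluster (bottom), with distance in kb from the start of the first gene. Circles are replicate 1, squares replicate 2 (log axis, TPM), horizontal lines span a gene, and grey ticks mark genes at 0 in both libraries. Of the listed maternal RNAs, Meg3 is highest and Mirg lowest, and in the lower panel Ndn lies far above its neighbour Magel2.

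Of the Igf2-H19 pair on chromosome 7, the noncoding partner is the member of the set. H19, a maternally expressed RNA that holds miR-675, stood at 382 TPM in replicate 1 and 364 TPM in replicate 2 (142575529 to 142578143, minus strand). Igf2, the paternally expressed growth factor 88673 bases away, stood at 450.3 and 457 TPM. The 5′-most group of H19 starts held 38.9% of its level in replicate 1 and 39.9% in replicate 2, through H19-202. H19-205, which also holds miR-675, had 38.6% and 36.7%, and H19-203, which does not, had 22.6% and 23.4%. Ins2, an insulin gene beyond Igf2, was at 0 in both.

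In the neighbouring Kcnq1 cluster, where the paternal RNA Kcnq1ot1 silences coding genes on its own chromosome, Cdkn1c was the highest of the listed genes and Phlda2, Ascl2, Slc22a18 and Kcnq1ot1 were below 4 TPM. Cdkn1c, a maternally expressed inhibitor of cyclin-dependent kinases, stood at 327 TPM in replicate 1 and 325 TPM in replicate 2, led by Cdkn1c-201 with 81.3% and 79.8%. H19 was 1.14 ± 0.0353 times higher than Cdkn1c. Phlda2, which limits placental growth, had 3.68 and 3.46 TPM. Ascl2, a transcription factor of the trophoblast, had 2.89 and 2.91 TPM, and Slc22a18, a transporter, had 1.59 and 2.00 TPM. Cdkn1c was 91.5 ± 3.62 times higher than Phlda2, while Phlda2 could not be set apart from Ascl2 or Slc22a18, whose intervals overlapped with it.

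Kcnq1ot1 stood at 3.19 TPM in replicate 1 and 2.64 TPM in replicate 2, a low level per length but one that rests on 7114 and 5475 estimated reads over an effective length of 84296 bases. It lies wholly inside Kcnq1, a potassium channel gene on the opposite strand, which had 5.03 and 4.64 TPM on 349 and 268 reads. Kcnq1ot1 was 0.602 ± 0.0461 times Kcnq1 per length, and their exons share 121 bases, 0.13% of Kcnq1ot1. Reads of Kcnq1 introns fall in the body of the unspliced Kcnq1ot1 model, and the counting of strand that would separate them is not known here. At the edges of the cluster, Cd81, a tetraspanin gene, stood at 608 TPM in replicate 1 and 581 TPM in replicate 2, and Nap1l4, a nucleosome assembly factor, at 193 and 189 TPM.

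The Snrpn cluster, the mouse counterpart of the Prader-Willi and Angelman region, spanned 3236 kb of chromosome 7 from Ube3a to Peg12. Ndn, a paternally expressed member of the MAGE family, led with 149.8 TPM in replicate 1 and 144 TPM in replicate 2. Its MAGE relative and neighbour Magel2 had 0.75 and 1.13 TPM. Ndn was 164 ± 51.2 times higher than Magel2, on intervals far apart in both libraries. Ube3a, a ubiquitin ligase read from the maternal copy in neurons and from both copies elsewhere, had 39.4 and 37.7 TPM. Snrpn, which encodes a spliceosome protein, had 32.7 and 31.0 TPM, with 99.5% in replicate 1 and all of it in replicate 2 on the start at 60005111. Ube3a was 1.21 ± 0.00873 times higher than Snrpn, a small difference that both libraries gave with intervals apart.

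Peg12, a gene of the Frat family of GSK3-binding proteins, had 26.2 TPM in replicate 1 and 28.3 TPM in replicate 2. Mkrn3, a RING finger protein gene, had 4.28 and 4.22 TPM. Peg12 was thus 6.41 ± 0.407 times higher than Mkrn3, its neighbour on the same strand. Snhg14, the long antisense RNA that hosts snoRNAs and silences paternal Ube3a in neurons, had 7.18 TPM in replicate 1 and 6.79 TPM in replicate 2. A group of Snhg14 starts 651610 bases into the gene, downstream of the snoRNA genes, held 50.01% in replicate 1 and 48.13% in replicate 2. A group 1328 bases in, upstream of them, held 36.65% and 42.36%. The Snhg14 level is thus that of all its models and not of the part that hosts snoRNAs. Ube3a was 5.52 ± 0.0519 times and Snrpn 4.56 ± 0.00996 times higher than Snhg14 taken as a whole gene. Ube3a and Snhg14 share 1803 exon bases on opposite strands. All 210 snoRNA genes of the span were at 0. Snurf, which shares exons with Snrpn and is named here after its values were seen, had 18.0 and 14.0 TPM, and how reads were split between the genes is uncertain.

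In the Peg3 cluster the listed genes lay far apart. Peg3, a paternally expressed zinc finger protein, stood at 105 TPM in replicate 1 and 95.6 TPM in replicate 2 (chromosome 7, 6703892 to 6730431, minus strand). Zim1, a maternally expressed zinc finger gene beside it, had 1.5 and 0.88 TPM, and Peg3 was 89.2 ± 27.4 times higher. Usp29, a deubiquitinase gene on the other side of the printed start region, had 0.09 TPM in replicate 1 and 0.08 TPM in replicate 2, on 6 and 5 reads. The Usp29 model counted is a single exon of 2610 bases that begins at 6961160, so the value describes that exon and not transcription at the start shared with Peg3. Peg3-201 held 77.3% of Peg3 in replicate 1 and 78.1% in replicate 2, and Peg3-203, annotated as a target of nonsense-mediated decay, held 19.2% and 18.3%.

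Sgce and Peg10 also begin back to back, 99 bases apart on chromosome 6, and are both paternally expressed. Sgce, the epsilon subunit of the sarcoglycan complex, stood at 61.6 TPM in replicate 1 and 55.1 TPM in replicate 2. Peg10, a retrotransposon-derived gene needed for the placenta, had 2.80 and 2.83 TPM. Sgce was 20.7 ± 1.80 times higher than Peg10 and 2.15 ± 0.0997 times higher than Casd1, its neighbour in the cluster (27.7 and 26.5 TPM). Of the Sgce models, Sgce-205 held 75.0% in replicate 1 and 63.4% in replicate 2, and Sgce-202 held 13.7% and 22.5%.

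Airn, the paternal noncoding RNA that silences Igf2r, stood at 27.0 TPM in replicate 1 and 26.8 TPM in replicate 2 (chromosome 17, 12741311 to 12860136, plus strand). Igf2r, the maternally expressed receptor that clears insulin-like growth factor 2, had 54.4 and 49.0 TPM, and Airn was 0.522 ± 0.0354 times Igf2r. The gene bodies overlap over 28354 bases on opposite strands and their exons over 0, and the value of Airn covers annotated exons of 3597 bases, though most Airn RNA is known to be unspliced. Mas1, a receptor gene whose body overlaps that of Airn over 19058 bases on the opposite strand, had 0.58 TPM in replicate 1 and 0.13 TPM in replicate 2. The 5′-most group of Airn starts held 92.3% in replicate 1 and 92.7% in replicate 2.

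The genes that stand alone in their clusters ranged widely. Plagl1, a zinc finger factor that restrains growth, had 113 TPM in both libraries, and 98.5% of it in both began at the group of starts at 13090691 on chromosome 10, while the group 30187 bases upstream was at 0. Impact, which restrains the kinase GCN2, had 22.4 TPM in replicate 1 and 22.7 TPM in replicate 2. Zdbf2, a paternally expressed zinc finger gene, had 6.68 and 4.12 TPM, and its neighbour Gpr1 had 0.04 TPM in both. Rasgrf1, an exchange factor for Ras studied mainly in neurons, had 0.58 and 0.69 TPM, beside 423 and 341 TPM for its neighbour Ctsh, a lysosomal protease gene. Trappc9, the host of Peg13, had 23.0 TPM in replicate 1 and 22.0 TPM in replicate 2.

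No imprinted gene differed 2-fold between the pools. Of the 21 that averaged 5 TPM or more, 0 were apart by 2-fold or more with intervals that did not overlap, beside 40 of 11261 genes, or 0.355%, a background so low that the count says nothing particular about them. Intervals did not overlap at any fold for 5 of the 21, beside 13.5% of all genes at that level. An exact binomial test of the reads, two-sided and without a minimum fold, gave 8 of the 21 with an unadjusted p under 0.05, beside 33.5% of all genes at that level, and 6 with a Benjamini-Hochberg adjusted p under 0.05, beside 16.9%. None of those 8 reached 2-fold. This test covers counting error only. Over the 28 detected genes the median log2 ratio of replicate 1 over replicate 2 was -0.01, as over all 14583 detected genes. Of the 28, 11 were higher and 17 lower in replicate 1, beside 6969 higher and 7614 lower of all detected genes. The SD of the ratio was 0.17 for the 28 and 0.26 for all detected genes. These groups were not matched for level, on which the SD depends, so the smaller SD is no result about the imprinted genes.

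Of the 21 genes that averaged 5 TPM or more, the 5 apart at any fold were Meg3, Peg12, Nnat, Grb10 and Cdkn1c. Meg3 was higher in replicate 1, with a log2 ratio of 0.15 after scaling, and Peg12 (-0.18), Nnat (-0.10), Grb10 (-0.09) and Cdkn1c (-0.06) were lower in it. The ratio depended on level over all genes: it averaged -0.01 with an SD of 0.146 for genes of 20 to 100 TPM, -0.06 with an SD of 0.0967 for genes of 100 to 500 TPM, and -0.10 with an SD of 0.092 for genes of 500 TPM or more. Grb10, Nnat and Cdkn1c lay within 1 SD of the mean of their level, Peg12 just outside and Meg3 well outside, above it. Zdbf2 (0.63), Peg3 (0.06) and Mest (-0.0003) also lay more than 1 SD above the mean of their level, with overlapping intervals. Of the other genes in the cluster of Meg3, the log2 ratio was 0.12 for Rtl1, 0.10 for Rian, 0.03 for Dlk1, -0.07 for Mirg and -0.59 for Dio3, all with overlapping intervals. Whether these ratios differ from that of Meg3 was not tested.

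At low levels ratios were wider. Of the 12 genes under 5 TPM, Zim1 (log2 ratio 0.70 on 122 and 68 reads), Kcnq1ot1 (0.20) and Magel2 (-0.66 on 90 and 127 reads) had intervals apart, beside 3.32% of all 13775 genes with reads under 5 TPM. Of the 8 that averaged 1 TPM or more it was 2, Zim1 and Kcnq1ot1, beside 6.84% of all genes of 1 to 5 TPM. The ratio of genes at that level averaged 0.08 with an SD of 0.659, and both lay within 1 SD of it. For Kcnq1ot1 these backgrounds are matched in TPM and not in reads, of which its long model had 7114 in replicate 1 and 5475 in replicate 2. The neuron and thymus markers were all higher in replicate 1, as were Meg3, Zim1 and Kcnq1ot1. The liver markers were all lower in it, as were Magel2, Peg12, Nnat, Grb10 and Cdkn1c. Of the 8 heart and skeletal muscle markers, 2 were higher in replicate 1 and 6 lower. Between 2 libraries every gene that differs must share the direction of some list, so a shared direction says nothing by itself. The part of these markers in the differences was not tested.

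Zdbf2 is a case where the level and the reads went separate ways. Its TPM gave a log2 ratio of 0.63, while its reads (509 in replicate 1 and 442 in replicate 2) gave 0.03 after scaling. The full-length model Zdbf2-202, of 12629 bases, had 1.32 TPM in both libraries, and the short model Zdbf2-203, of 611 bases, had 5.37 TPM in replicate 1 and 2.80 TPM in replicate 2. The effective length of the gene was 2879 bases in replicate 1 and 4356 in replicate 2. A log2 ratio that differed by over 0.2 between TPM and reads was found for 2 of the 33 genes, Zdbf2 and Rasgrf1.

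**Figure D4:**
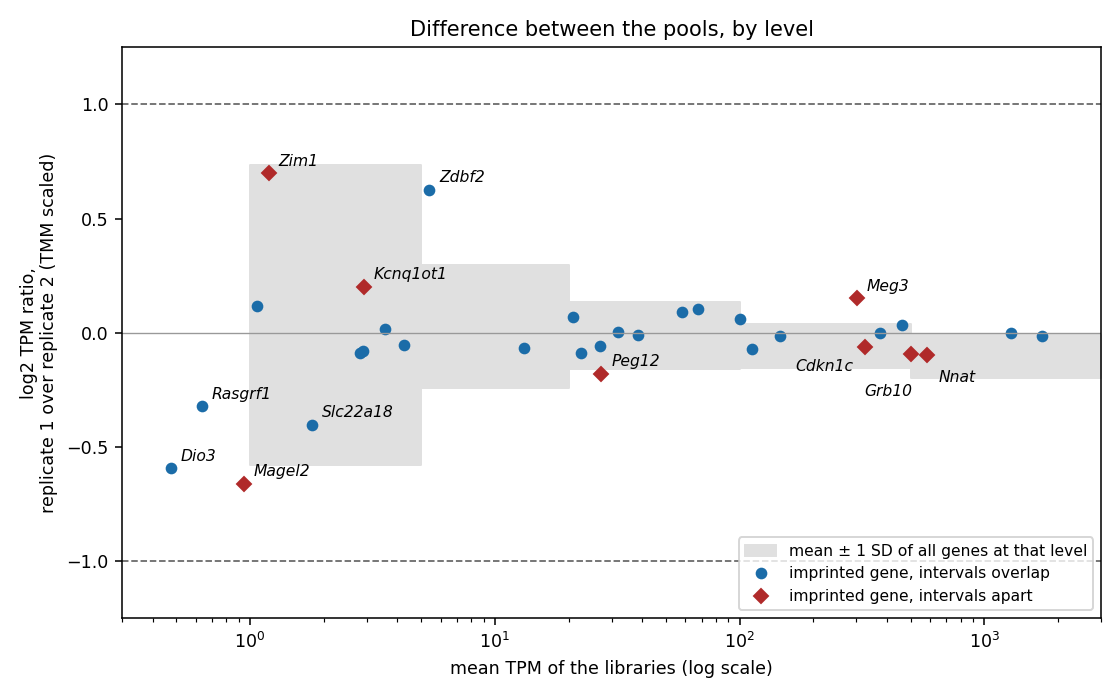
Log2 TPM ratio of replicate 1 over replicate 2 after TMM scaling against the mean TPM (log axis) for imprinted genes of 0.3 TPM or more. Diamonds are genes with intervals that do not overlap, circles the others, grey bands show the mean of all genes at that level with 1 SD on either side, and dashed lines mark 2-fold. No gene reaches the dashed lines. Meg3, Zdbf2, Peg3 and Mest stand above the band of their level and Peg12 below it.

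Genes beyond the set behaved as follows. Of 60 matched neighbours in the same domains, 44 were detected, with a median of 6.89 ± 0.219 TPM (SD of the library medians, n = 2), below the 26.5 TPM median of the imprinted set, though these lists were not drawn to be compared. Hrh4 and Ankrd34c were at 0 in both libraries, and Ctsz (184 and 178 TPM) and Lsp1 (111 and 105 TPM) were above 100 TPM. Of 12 imprinted genes from elsewhere in the genome, 11 were detected, with a median of 13.5 ± 1.19 TPM. Of 9 genes whose products maintain imprints, 8 were detected, with a median of 66.5 ± 1.51 TPM. Among them, Zfp57, which binds the hexamer searched for above, stood at 67.6 TPM in replicate 1 and 65.5 TPM in replicate 2. Its cofactor Trim28 stood at 251 and 256 TPM, and Dnmt1, the maintenance DNA methyltransferase, at 77.5 and 75.8 TPM. Dppa3, a factor of the egg and early embryo, was at 0 in both.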

How the data were processed

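Total RNA-seq tables of 2 libraries (1 group) were used, with genome build mm10 and annotation GENCODE M4, per the deposited text that describes the files. No source used here names the program or its version, and strand use is not given. The deposited expected counts are estimated reads, the deposited TPM and FPKM values are levels per length, and the deposited transcript percent is a model's share of its gene's TPM, per the file headers. The deposited interval of each TPM, of unstated level, lies around a posterior mean. The TPM can lie outside it, as for Gnas in replicate 1 (1756 TPM, interval 1703 to 1735). Names and positions came from GENCODE M21 (42462 of 43346 identifiers matched). The libraries had 40395800 and 36601100 estimated reads in all; numbered features that name no gene held 0.00018% of each and were left out.

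All members are named, as are neighbours that overlap, host or oppose a member, and neighbours at 100 TPM or more or at 0. Members and lists were chosen with earlier results of these data known. Ratios were scaled by TMM (edgeR 4.0.16, R 4.3.3), which put a log2 shift of -0.07 on replicate 1 over replicate 2; counts were rounded first. A single group allows no test between conditions. Genes within a cluster were called different where the deposited intervals overlapped in neither library. Starts within 500 bases were grouped. An exact binomial test (scipy 1.17.1) with Benjamini-Hochberg adjustment over all genes was tried on simulated counts that held counting error only. Calls there also needed a 2-fold change. The trial therefore did not cover variation between pools or the test without a minimum fold. Intervals cover counting and assignment only. Alternatives were other minimums, folds, scalings (DESeq2 1.42.0), units, pseudocounts and leaving out a library.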

Additional observations from a re-analysis of the deposited data

How the results depend on the processing

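The number of imprinted genes detected was 28, with 31 at a minimum of 0.5 TPM, 20 at 5 TPM, 27 by posterior mean TPM, 27 by FPKM and 29 with either library left out. With the longest model of each gene in place of the gene, an alternative chosen after seeing the data, it was 21. None of the 33 was called apart under a 1.5-fold limit, a minimum mean of 1 TPM, no minimum, DESeq2 size factors, TPM as deposited, the exact binomial test with a 2-fold limit, or folds from estimated reads (chosen after seeing the data), while 39 to 320 of all genes were. The summed level lay between 6120 and 6373 TPM over the alternatives. All 29 ratios within or between clusters kept their order by posterior mean TPM, by FPKM and in each library alone. These alternatives could hardly have changed it, since FPKM keeps the ratios of TPM within a library. The calls reused the same deposited intervals, which lie around the posterior mean, so they could not change and were not tested here. Levels moved by more than the SD of the libraries for 12 of 33 genes by posterior mean TPM and for 18 when rescaled over Ensembl genes. The share of the leading start moved by more than that SD for 10 of 18 genes by posterior mean. Those of Ascl2 (45.3%) and Slc22a18 (70.4%) moved most, so their starts are not described. The log2 ratio of Zdbf2 was 0.03 from estimated reads. No paired analysis was possible because the samples form a single group of 2 libraries. With n = 2 each SD is itself poorly known, and levels under 1 TPM rest on few reads.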
